A study of Pimephales promelas with 51 samples.

Results

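Radial glia and neural progenitor genes were followed in whole fathead minnow larvae exposed to dexamethasone or fluticasone propionate, synthetic corticosteroids that activate the glucocorticoid receptor. The set was named by symbol: the glial genes fabp7a, gfap and nes, the progenitor factors sox2 and sox3, the Hairy-related repressors her6 and her9, and the receptors notch1a and notch3. Of these 9 names, 8 matched a row among the 36695 genes of the count tables, and 6 had enough reads to be tested. No row is named gfap. Rows for sox2 and sox3 were listed at 0 in all 51 libraries, as were 7400 of the 36695 genes (20.2%).

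Radial glia are the cells that line the ventricles of the developing vertebrate brain, divide to give neurons and glia, and guide migrating neurons. In fish they persist into adult life and take on many of the roles that astrocytes have in mammals. Notch receptors on a progenitor are activated by ligands of neighbouring cells and switch on some Hairy-related repressors. Such repressors hold back proneural factors and so keep the cell undifferentiated. Whether her6 or her9 depends on Notch in these larvae was not tested. Several of these genes are also used outside the brain, nes in developing muscle and notch3 in the mural cells of vessels.

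The larvae were of the GLTED-Duluth-wt strain, 5 to 6 days after fertilization, and were exposed for 24 h. The 51 libraries fell into 17 groups of 3: DMSO, the solvent that served as the control, 8 concentrations of dexamethasone and 8 of fluticasone propionate. RNA came from pooled homogenates of whole bodies, so a level is an average over tissues and animals. Groups are named here by the concentration in their labels. For dexamethasone these were 0.008, 0.025, 0.08, 0.25, 0.8, 2.5, 8 and 25 µM, and measured concentrations ran from 0.0066 to 23.6726 µM. For fluticasone propionate they were 0.003, 0.006, 0.01, 0.019, 0.034, 0.06, 0.1 and 0.19 µM, with 0.0019 to 0.0597 µM measured. The labels letter the replicates A, B and C without saying that they were separate exposures. P-values therefore measure the spread between these libraries. In bulk RNA, fewer cells of a type and less RNA per cell cannot be told apart.

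Reads assigned to genes numbered 1316614 to 2097358 per library, with a median of 1618729. Aligned reads that overlapped no gene, called reads outside genes here, made up 22.6 to 33.6% of all reads, and 7 libraries were above 30%, 6 of them dexamethasone libraries and none of them DMSO. Levels are given in CPM, the reads of a gene scaled to the size of its library, after TMM scaling, which corrects for differences in library composition. A level is compared only between samples and not between genes. The median library held 202 reads of fabp7a, 92 of notch3, 67 of her6 and 49 of her9, but only 19 of notch1a and 15 of nes. The spread between libraries of a group was 20.1% of the mean for fabp7a, where counting alone gives 6.85%. For notch1a the spread was 25.4% and counting alone gives 23.1%, and for nes these were 30.6% and 25.4%.

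The brain fatty acid binding protein gene fabp7a, a marker of radial glia, was the only member called in the main fits. It was called lower in dexamethasone at 25 µM and at 0.8 µM and along dexamethasone concentration. Each of these calls was lost under some other settings. Apart from her9 under other settings of a trend, no other member was called at any concentration, in either trend or in the matched pairs. A member not called is not thereby shown to be unchanged. In DMSO replicates A, B and C it stood at 149, 186 and 139 CPM, a mean of 158 ± 25.0 (SD, n = 3). In dexamethasone at 25 µM it stood at 94.6, 114 and 98.4 CPM, a mean of 102 ± 10.1 (SD, n = 3). All 3 treated libraries lay below all 3 DMSO libraries, as for 8.02% of all genes. The log2 fold change was -0.63 ± 0.17 (SE, 95% interval -0.97 to -0.29), with an adjusted p of 0.0453 from edgeR's quasi-likelihood test over all genes. Among all genes tested at 25 µM, 1.32% were called, and 0.642% of all genes tested were called lower. The call was lost when any of the 3 libraries at 25 µM, or replicate A or B of DMSO, was left out, with adjusted p up to 0.304, and the log2 fold change then lay between -0.71 and -0.49. With the percentage of reads outside genes as a further term it was -0.58 and called (edgeR adjusted p = 0.00215).

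At 8 µM the level of fabp7a was 97.6, 98.3 and 133 CPM, a mean of 110 ± 20.4. At 2.5 µM it was 112, 103 and 106 CPM, a mean of 107 ± 4.41. Both groups lay below every DMSO library, yet neither passed the test across all genes, with log2 fold changes of -0.53 ± 0.16 (edgeR adjusted p = 0.23) and -0.56 ± 0.17 (edgeR adjusted p = 0.212). At 0.8 µM it was 90.5, 93.8 and 77.7 CPM, a mean of 87.3 ± 8.51 and the lowest of all 17 groups. The log2 fold change there was -0.86 ± 0.17 (95% interval -1.20 to -0.52, edgeR adjusted p = 0.00629), and 2.47% of all genes were called at that concentration, 1.33% as lower. Reads outside genes were 30.4 ± 2.8% in that group against 25.0 ± 0.45% in DMSO. A fit with this percentage as a further term gave -0.47 for fabp7a, not called (edgeR adjusted p = 0.438). Without the libraries above 30%, an alternative added after seeing the data, it was -0.89 (edgeR adjusted p = 0.000713), and without replicate C of every group it was -0.86 and not called (edgeR adjusted p = 0.111).

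At 0.08 and 0.025 µM dexamethasone the libraries of a group were further apart than at the higher concentrations. The level of fabp7a was 120, 136 and 138 CPM at 0.25 µM, where reads outside genes were 30.4 ± 1.4%. It was 102, 178 and 127 CPM at 0.08 µM and 96.6, 169 and 127 CPM at 0.025 µM. In both of these groups replicate B lay within the range of DMSO and replicates A and C below it. Reads outside genes in replicates A, B and C were 32.62, 25.7 and 27.36% at 0.08 µM. They were 33.15, 25.4 and 27.05% at 0.025 µM. The part of this share in the split between replicates was not tested. At 0.008 µM the level was 152, 137 and 139 CPM, a mean of 143 ± 8.4. The log2 fold changes against DMSO were -0.27, -0.22, -0.27 and -0.15 from 0.25 down to 0.008 µM, and none was called. Across the 24 dexamethasone libraries, with DMSO left out, fabp7a fell by 0.15 ± 0.041 on the log2 scale per log10 unit of concentration (95% interval -0.235 to -0.066, edgeR adjusted p = 0.0446). Of all genes tested for this trend, 2.16% were called, 0.858% as lower. With the percentage of reads outside genes as a further term the slope was -0.161 and called (edgeR adjusted p = 0.00147). The slope was -0.166 and not called without the 25 µM group (edgeR adjusted p = 0.215). It was not called without replicate A, B or C either, with slopes of -0.171 to -0.113 and edgeR adjusted p of 0.11 to 0.335.

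Fluticasone propionate gave a less regular picture for fabp7a. At 0.19 µM its level was 134, 136 and 131 CPM, a mean of 134 ± 2.78, just below the lowest DMSO library. At 0.1 µM it was 146, 149 and 126 CPM, and at 0.06 µM 126, 181 and 106 CPM. Both groups overlapped DMSO. At 0.034 µM it was 136, 133 and 90.1 CPM, again wholly below DMSO, and at 0.019 µM 149, 128 and 147 CPM. The widest spread was at 0.01 µM, with 129, 237 and 165 CPM, and 0.006 µM, with 138, 212 and 120 CPM. In both, replicate B was above every DMSO library, and at 0.01 µM the mean of 177 ± 55.1 was the highest of all groups. At 0.003 µM the level was 154, 176 and 158 CPM, within the range of DMSO. The log2 fold change at 0.19 µM was -0.24 ± 0.23 (95% interval -0.72 to 0.24, edgeR adjusted p = 0.91), where 0.246% of all genes were called. The slope over the 24 fluticasone propionate libraries was -0.20 ± 0.097 per log10 unit (edgeR adjusted p = 0.444), where 1.58% of all genes were called. The contrasts of both compounds share the DMSO libraries, the slopes do not, and the difference between the slopes was not tested.

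**Figure D1:**
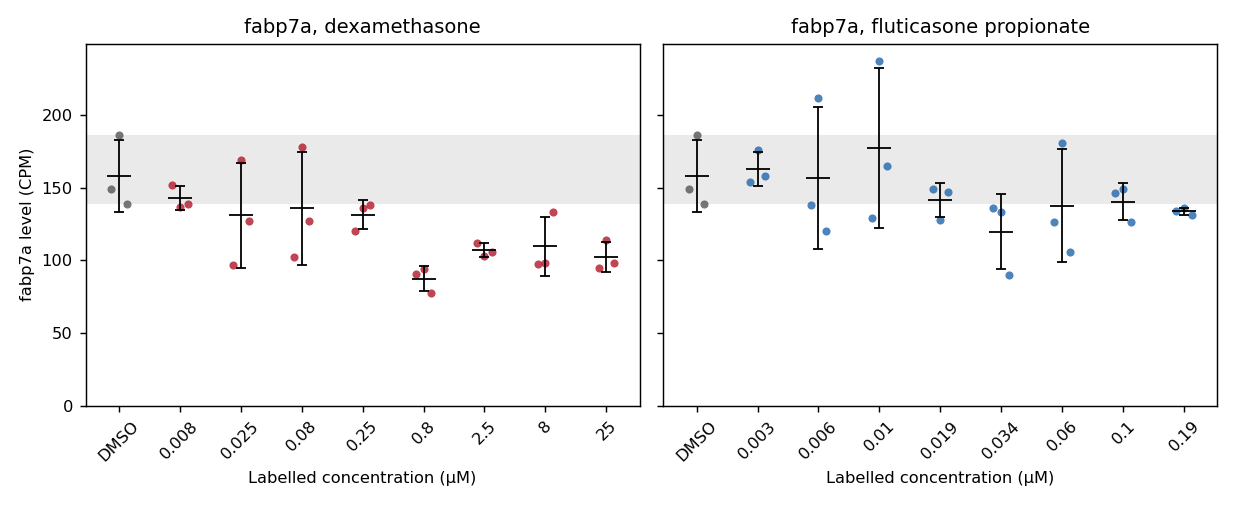
Level of fabp7a in CPM (vertical axis) in DMSO and at each labelled concentration in µM (horizontal axis) of dexamethasone, left, and fluticasone propionate, right. Points are the 3 libraries of a group, black bars the mean ± SD, and the grey band the range of DMSO. All 12 libraries at 0.8, 2.5, 8 and 25 µM dexamethasone sit below the band. So do, more narrowly, those at 0.25 µM dexamethasone and at 0.19 and 0.034 µM fluticasone propionate.

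Ordered by the mean level of fabp7a, the 4 lowest of the 17 groups were the 4 highest concentrations of dexamethasone, with 87.3, 102, 107 and 110 CPM for 0.8, 25, 2.5 and 8 µM. Fluticasone propionate at 0.034 µM followed with 120 ± 25.6 CPM. Dexamethasone at 0.025, 0.25, 0.08 and 0.008 µM came between 131 and 143 CPM, among fluticasone propionate at 0.19, 0.06, 0.1 and 0.019 µM, between 134 and 141 CPM. Above them stood fluticasone propionate at 0.006 µM with 157 CPM, DMSO with 158, and fluticasone propionate at 0.003 and 0.01 µM with 163 and 177 CPM. Of the 16 pairs of neighbours in this order, 15 overlapped in range, and the remaining pair, dexamethasone at 25 and 0.8 µM, was separated by less than 1 SD of either group.

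The Hairy-related repressors her6 and her9 showed no called change. For her6 the level was 45.6, 44.8 and 51.4 CPM in DMSO and 47.5, 48.6 and 45.9 CPM in dexamethasone at 25 µM, a log2 fold change of 0.005 ± 0.17. The ranges overlapped. Group means of her6 ran from 37.2 CPM in dexamethasone at 8 µM to 51.6 CPM in fluticasone propionate at 0.003 µM. In dexamethasone at 8 µM its libraries stood at 36.8, 38 and 36.8 CPM, all below DMSO, with a log2 fold change of -0.35 ± 0.17 (edgeR adjusted p = 0.554). Its libraries at 0.25 µM were also all below DMSO.

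The level of her9 was 27.4, 28.3 and 34.3 CPM in DMSO. In dexamethasone at 25 µM it was 19.5, 36.4 and 25.9 CPM, and at 0.8 µM 18.9, 25.6 and 24.4 CPM, wholly below DMSO. Neither group was called, with log2 fold changes of -0.15 ± 0.22 and -0.37 ± 0.22 (edgeR adjusted p of 0.896 and 0.397). In fluticasone propionate her9 stood highest at the lowest concentrations, at 41.7, 40.0 and 42.3 CPM at 0.003 µM and 40.9, 37.8 and 38.2 CPM at 0.006 µM. All 6 of these libraries lay above DMSO. At 0.01 µM it was 45.3, 32.2 and 38.5 CPM, and at 0.19 µM 38.2, 23.3 and 29.5 CPM. The group means at 0.019, 0.034, 0.06, 0.1 and 0.19 µM lay close to that of DMSO. Its log2 fold change was 0.47 ± 0.20 at 0.003 µM (edgeR, unadjusted p = 0.0247, adjusted p = 1) and 0.017 ± 0.21 at 0.19 µM. Its slope over the 24 fluticasone propionate libraries was -0.30 ± 0.088 per log10 unit (95% interval -0.472 to -0.12), with an adjusted p of 0.0698 from edgeR, above the threshold of 0.05. A fit with the percentage of reads outside genes as a further term gave a slope of -0.32, which was called (edgeR adjusted p = 0.0184). Without replicate A, B or C the slope was -0.34 to -0.255 and not called (edgeR adjusted p of 0.178 to 0.325). Nor was it called without the 0.19 µM group. In that trend all 6 members tested had a slope below 0, with a median of -0.167 against -0.003 over all genes tested, and none was called by the edgeR fit with no further term or by DESeq2.

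The receptors notch1a and notch3 showed no called change either. For notch3 the level was 61.6, 57.7 and 68.6 CPM in DMSO and 46.5, 46.0 and 62.9 CPM in dexamethasone at 25 µM, its lowest group. The log2 fold change of -0.28 ± 0.17 was not called (edgeR adjusted p = 0.6), and replicate C overlapped DMSO. In fluticasone propionate at 0.19 µM it was 62.3, 61.1 and 58.4 CPM, within the range of DMSO, with a log2 fold change of -0.05 ± 0.15. The level of notch1a was 10.8, 13.5 and 10.3 CPM in DMSO. In dexamethasone at 25 µM it was 12.0, 15.3 and 10.4 CPM, and in fluticasone propionate at 0.19 µM 7.64, 11.6 and 15.5 CPM, both overlapping DMSO. Its log2 fold change at 25 µM was 0.12 ± 0.32, with a 95% interval of -0.52 to 0.75.

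The level of nes, which encodes the intermediate filament nestin of neural progenitors, was 11.4, 12.4 and 7.54 CPM in DMSO and 11.5, 9.58 and 2.96 CPM at 25 µM. Its log2 fold change of -0.33 ± 0.39 had a 95% interval of -1.12 to 0.46. A fall of the size of that of fabp7a was therefore not excluded for nes at this depth. Without replicate C at 25 µM the value was 0.013, and neither value was called.

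**Figure D2:**
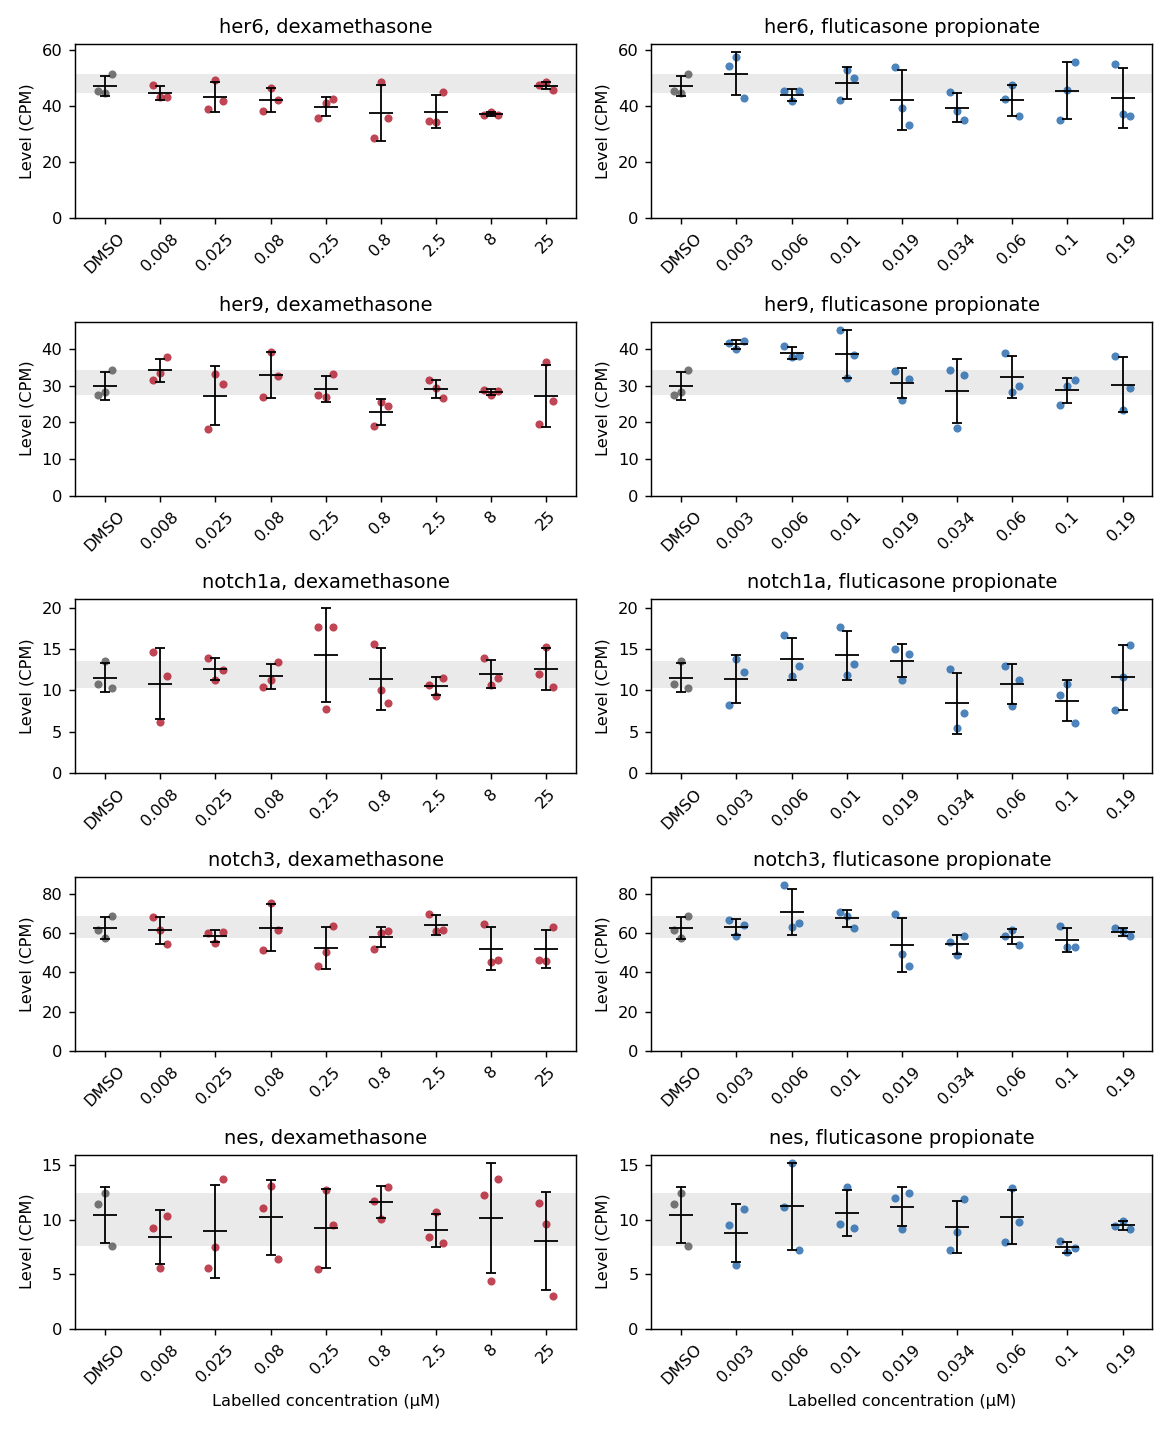
Levels in CPM (vertical axes) of her6, her9, notch1a, notch3 and nes in DMSO and at each labelled concentration in µM (horizontal axes) of both compounds. Points are the 3 libraries of a group, black bars the mean ± SD, and the grey band the range of DMSO; most groups overlap the band, and her9 lies above it at 0.003 and 0.006 µM fluticasone propionate.

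Counted over the 6 members tested, 1 fell at 25 µM dexamethasone and 5 were not called, and 4 of the 6 estimates were below 0, with a median of -0.217 against 0.004 over all genes. Over the 7 lower concentrations of dexamethasone, 1 of 42 member-by-concentration tests was called, that of fabp7a at 0.8 µM. In fluticasone propionate none of the 6 members was called at 0.19 µM, none had an unadjusted p under 0.05 there, and none was called at the 7 lower concentrations by edgeR. DESeq2 called none of the 4 members to which it gave an adjusted p at 0.19 µM and none of 42 at the lower concentrations. At those lower concentrations 1 of 42 tests, that of her9 at 0.003 µM, had an unadjusted p under 0.05, as had 555 of 17877 genes at 0.003 µM. The share of all genes called was 0.194% at 8 µM dexamethasone, 0.133% at 2.5 µM and 0.0166% at 0.25 µM, and 0.0727% at 0.1 µM fluticasone propionate, 0.0168% at 0.06 µM and 0.00559% at 0.003 µM. At 0.08, 0.025 and 0.008 µM dexamethasone and at 0.034, 0.019, 0.01 and 0.006 µM fluticasone propionate edgeR called 0 genes, and 624 to 1278 had an unadjusted p under 0.05. Members lying wholly below DMSO were fabp7a alone at 25 and 2.5 µM dexamethasone, fabp7a and her6 at 8 and 0.25 µM, and fabp7a and her9 at 0.8 µM. Besides the 8.02% at 25 µM, the share of all genes wholly below DMSO was 7.94, 9.41, 11.3 and 8.98% for 8, 2.5, 0.8 and 0.25 µM. For fabp7a in fluticasone propionate these shares were 6.70% at 0.19 µM and 5.71% at 0.034 µM. For her9 wholly above DMSO they were 4.84% at 0.006 µM and 4.96% at 0.003 µM.

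**Figure D3:**
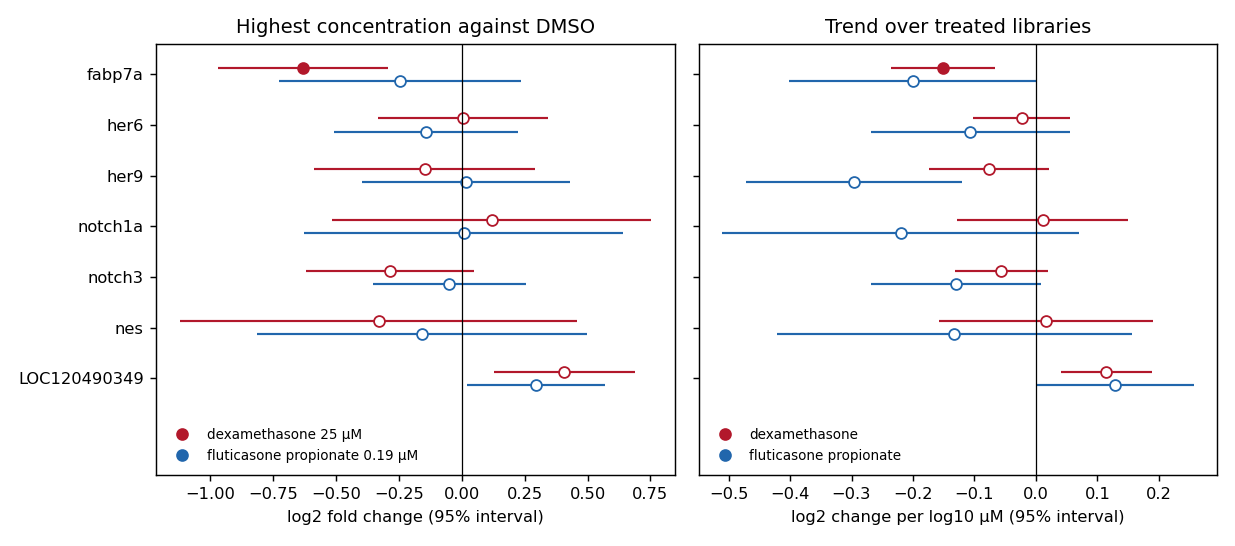
Log2 fold change against DMSO at the highest concentration of each compound (left) and log2 change per log10 unit of concentration over the 24 treated libraries (right), for the 6 tested members and LOC120490349, with 95% intervals. Filled points passed an adjusted p under 0.05 over all genes and open points did not; only both dexamethasone points of fabp7a are filled.

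The compounds could be compared directly at 3 pairs of groups whose measured concentrations were close. Dexamethasone labelled 0.08 µM and fluticasone propionate labelled 0.19 µM measured 0.055 and 0.0597 µM. Those labelled 0.025 and 0.06 µM measured 0.0189 and 0.0158 µM, and those labelled 0.008 and 0.019 µM measured 0.0066 and 0.0072 µM. In structure, fluticasone propionate has, among other differences, an ester of propionic acid where dexamethasone has a free hydroxyl group, and a fluoromethyl thioester in place of its hydroxyketone side chain. For fabp7a the log2 difference, dexamethasone minus fluticasone propionate, was 0.025 ± 0.21 (95% interval -0.41 to 0.46), -0.068 ± 0.22 (-0.51 to 0.38) and 0.008 ± 0.22 (-0.43 to 0.45). Differences within these intervals were not excluded, so the values do not show that the compounds act alike. Over the 18 member-by-pair values the difference ran from -0.436 to 0.218, none was called by edgeR, and none had an unadjusted p under 0.05. DESeq2 gave an adjusted p for 16 of the 18 and called none. Of all genes 0.344% were called in the first pair and 0 in the other pairs. The concentrations of dexamethasone at which fabp7a was called, 0.8 and 25 µM, lay above every measured concentration of fluticasone propionate.

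The glial intermediate filament gene gfap was looked for by gene number, since no row carries its name. In the RefSeq table of assembly fPimPro1.hap1.1, used only for names, gfap has the number of the row LOC120490349. That row is not among the members, and it was chosen after its values were seen. Its level was 89.5, 102 and 92.6 CPM in DMSO and 115, 137 and 126 CPM in dexamethasone at 25 µM, all above DMSO, as for 8.61% of all genes. The log2 fold change of 0.41 ± 0.14 was not called (edgeR, unadjusted p = 0.00498, adjusted p = 0.164). At 0.8 µM the level was 57.9, 77.8 and 90.2 CPM, its lowest group. At 0.25 µM it was 88.2, 77 and 88.9 CPM, all below DMSO, as for 8.98% of all genes. The slope over dexamethasone libraries was 0.114 ± 0.037 and not called (edgeR adjusted p = 0.103). Without the 0.8 µM group, an alternative added after seeing the data, it was 0.123 and called (edgeR adjusted p = 0.0165). Without the 25 µM group it was 0.046 and not called (edgeR adjusted p = 0.816). Nor was it called without replicate A, B or C, with slopes of 0.096 to 0.15 (edgeR adjusted p of 0.183 to 0.484). Over the 51 libraries the level of the row had a correlation of -0.531 with the percentage of reads outside genes. With this percentage as a further term the log2 fold change at 25 µM was 0.43 and not called (edgeR adjusted p = 0.0561). The dexamethasone slope was then 0.10 and not called (edgeR adjusted p = 0.0594). In fluticasone propionate at 0.19 µM the row stood at 118, 94.2 and 137 CPM, overlapping DMSO, with a log2 fold change of 0.30 ± 0.14 that was not called. At the first matched pair its log2 difference was -0.41 ± 0.14 (edgeR, unadjusted p = 0.00555, adjusted p = 0.229). Its estimates at both highest concentrations were above 0 where those of fabp7a were below 0, but only that of fabp7a at 25 µM was called. At 0.8 µM dexamethasone both were below 0, LOC120490349 by 0.324 ± 0.145 on the log2 scale and not called (edgeR adjusted p = 0.228).

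**Figure D4:**
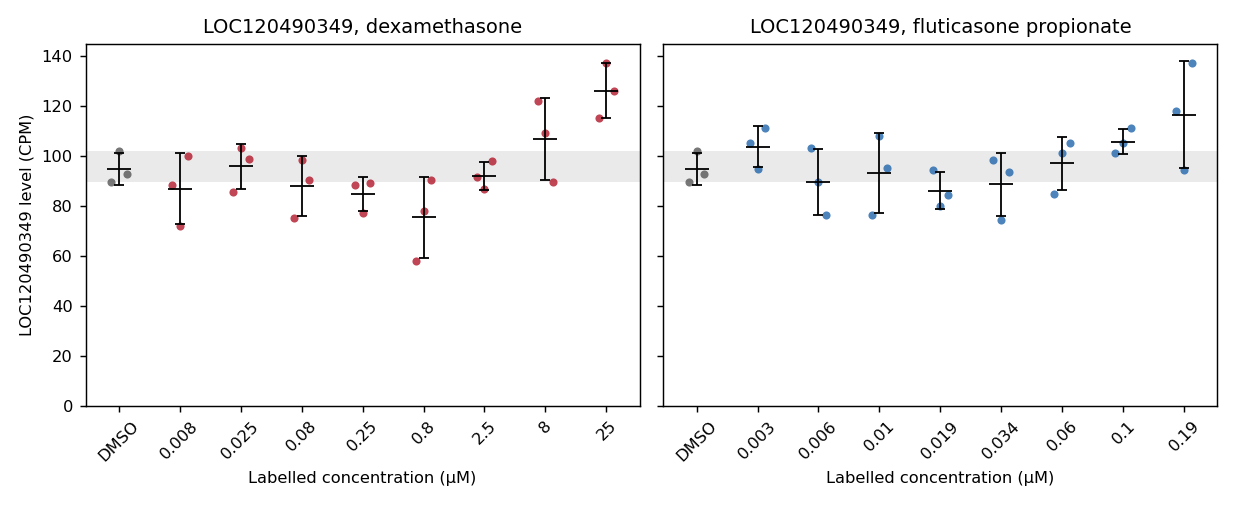
Level in CPM (vertical axis) of LOC120490349, the row with the gene number of gfap, in DMSO and at each labelled concentration in µM (horizontal axis) of both compounds. Points are the 3 libraries of a group, black bars the mean ± SD, and the grey band the range of DMSO; the 3 libraries at 25 µM dexamethasone, 115 to 137 CPM, sit above the band.

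For sox2 and sox3, which keep neural progenitors from differentiating, the tables list 0 in every library. The related progenitor genes sox1a and sox1b were also listed at 0, as was mcm5, whose partners in the replicative helicase mcm2, mcm3, mcm4, mcm6 and mcm7 all had reads. A 0 in these rows therefore says nothing about expression, and no limit is drawn from it.

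Across the 17 group means, fabp7a varied with her9 (r = 0.822) and her6 (r = 0.712) and less with notch3 (0.522), notch1a (0.226) and nes (0.088). Within groups, over the 51 libraries, r was 0.083 with her9 and 0.305 with her6. The libraries share one scaling and differ in reads outside genes. With that share the correlation over 51 libraries was -0.493 for fabp7a, -0.596 for her6, -0.542 for her9 and -0.387 for notch3, and 0.078 for notch1a and 0.039 for nes. Its part in the levels was tested only by the fits with it as a further term, described above. The genes whose group means were most like those of fabp7a were h2az2b, a histone variant gene (r = 0.943), the splicing gene sf3b6 (0.934), the collagen gene col1a1a (0.932), the muscle actin gene acta1b (0.93) and the peroxiredoxin gene prdx2 (0.928). For her9 the closest were tmem126a (0.902), ube2e3, tktb, emc4 and smdt1b, and for her6 caprin1b (0.874), apoa2, ldb3a, myl13 and apoc1. For notch3 they were dync1i2a (0.811), tspan4a, melk, fbxw5 and tmx3a, and for notch1a sh3gl3b (0.777), moxd1, crispld1b, rfx1b and phf5a. For nes they were supt7l (0.755), alx4b, maptb, rpa2 and emc6. Each of these is a correlation over 17 group means, chosen as the highest among all named genes, and is a description only.

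Of 29 other genes of the Notch pathway (ligands, receptors, processing enzymes and targets), none was called at 25 µM dexamethasone, at 0.19 µM fluticasone propionate, or in the trend of dexamethasone or of fluticasone propionate. Of the 29, an unadjusted p under 0.05 was had by 1, 4, 2 and 3 in these comparisons. Over all genes tested it was had by 1826 of 18075, 1360 of 17877, 2054 of 17958 and 2013 of 17701. These shares apply to the lists below as well. Their median log2 fold change was -0.119 at 25 µM and -0.147 at 0.19 µM, against 0.004 and -0.008 over all genes. The smallest p at 25 µM belonged to the ligand gene jag1b (-0.34 ± 0.17) and the fringe gene lfng (0.32 ± 0.17), which encodes a sugar transferase that modifies Notch. At 0.19 µM they belonged to mfng (-0.66 ± 0.23) and the ligand gene jag2a (-0.46 ± 0.20). In the dexamethasone trend they belonged to jag1b (-0.098 ± 0.037) and notch2 (-0.075 ± 0.035), and in the other trend to notch1b (-0.228 ± 0.076) and the ligand gene dla (-0.299 ± 0.113).

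Of 24 other genes of radial glia and astroglia, 1 rose and none fell at 25 µM dexamethasone. This was glula, a glutamine synthetase gene, which rose by 0.58 ± 0.14 on the log2 scale (edgeR adjusted p = 0.0257). It also rose with dexamethasone concentration, by 0.191 ± 0.041 per log10 unit, whereas aldh1l1, a folate enzyme gene of astrocytes, fell by 0.152 ± 0.043. Glutamine synthetase is also made in liver and muscle, and its source in a whole larva was not tested. At 0.19 µM fluticasone propionate none of the 24 was called and 5 had an unadjusted p under 0.05. There glula stood at 0.64 ± 0.19 (edgeR adjusted p = 0.318), and the glutamate transporter gene slc1a3a at 0.59 ± 0.24. In the fluticasone propionate trend the sodium pump gene atp1a1b rose by 0.194 ± 0.053. The summed level of the list was 1920 to 2140 CPM in DMSO and 2090 to 2230 CPM at 25 µM.

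Of 30 other genes of neural progenitors and neurogenesis, 1 fell at 25 µM and none rose. This was stmn1a, which encodes a microtubule regulator of growing and dividing cells and fell by 1.38 ± 0.26 on the log2 scale (edgeR adjusted p = 0.00574). In the trends stmn1a fell by 0.253 ± 0.061 per log10 unit of dexamethasone and by 0.339 ± 0.086 with fluticasone propionate. There the neuronal differentiation factor neurod1 fell too, by 0.229 ± 0.059. At 25 µM 5 of the 30 had an unadjusted p under 0.05 with edgeR. At 0.19 µM none of 29 was called and 2 had an unadjusted p under 0.05, with stmn1a at -0.73 ± 0.21 and zic2a at 0.34 ± 0.13. The summed level of the list was 2570 to 2740 CPM in DMSO. At 25, 8 and 0.8 µM dexamethasone it was 2320 to 2490, 2410 to 2470 and 2340 to 2510 CPM, all below DMSO. In every other group it overlapped DMSO. The cause of the lower sums was not tested.

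Of 29 markers of neurons, none was called at either highest concentration, where 2 and 1 had an unadjusted p under 0.05. Their median was 0.097 at 25 µM and 0.105 at 0.19 µM, with summed levels of 6090 to 6260 CPM in DMSO, 6180 to 6670 at 25 µM and 6220 to 6760 at 0.19 µM. At 0.25 µM dexamethasone the neuron sum was 5940 to 5980 CPM, below DMSO. At 0.1 µM fluticasone propionate it was 6280 to 6560 CPM, above DMSO. The smallest p at 25 µM were those of gad1b (0.61 ± 0.27) and sv2a (0.28 ± 0.14), and at 0.19 µM nefma stood at 0.27 ± 0.13. In the trends 1 of 29 rose with dexamethasone, the synuclein gene sncb (0.085 ± 0.023), and 1 with fluticasone propionate, the synapsin gene syn1 (0.21 ± 0.059). Of 10 oligodendrocyte and myelin genes none was called in these 4 comparisons and 1 had an unadjusted p under 0.05 in each, with plp1b at -0.66 ± 0.24 and cldnk at -0.40 ± 0.23 at 25 µM. Of 16 retina genes 3 fell at 25 µM and 3 fell with dexamethasone concentration, and 2 of 15, rcvrn2 and opn1sw2, fell with fluticasone propionate concentration. Those that fell at 25 µM encode photoreceptor proteins: rcvrn2 (-0.76 ± 0.13), opn1sw2 (-0.69 ± 0.12) and opn1sw1 (-1.05 ± 0.25). The summed level of the retina list was 2770 to 3380 CPM in DMSO and overlapped it at 25 µM, with 2720 to 3100 CPM. At 0.8 and 0.25 µM dexamethasone it was 2490 to 2660 and 2620 to 2700 CPM, both below DMSO. Mean reads outside genes were 30.4% in both of these groups, and their part in the retina sums was not tested.

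As a list, genes of the cell cycle, which dividing progenitors share with every other dividing cell of the larva, were also lower at 25 µM dexamethasone. Of 27 tested, 9 fell and none rose, with a median of -1.15 on the log2 scale. The replication clamp gene pcna fell by 1.40 ± 0.19 and the proliferation marker mki67 by 1.24 ± 0.22, and the summed level of the list was 734 to 953 CPM in the DMSO libraries and 435 to 468 CPM at 25 µM. At 0.8 µM, where fabp7a was lowest, the sum was 491 to 659 CPM. It was 518 to 619 CPM at 8 µM, 513 to 622 CPM at 2.5 µM and 683 to 722 CPM at 0.25 µM. At 0.1 µM fluticasone propionate, where fabp7a overlapped DMSO, the sum was 581 to 703 CPM, also below DMSO. At 0.034 µM fluticasone propionate, where fabp7a lay wholly below DMSO, the sum was 598 to 823 CPM and overlapped DMSO. At 0.19 µM fluticasone propionate it was 541 to 637 CPM. There none of the 27 was called by edgeR, nor any of the 12 to which DESeq2 gave an adjusted p, although 12 of the 27 had an unadjusted p under 0.05 with edgeR, with a median of -0.717, top2a at -0.46 ± 0.14 and tpx2 at -0.96 ± 0.30. In the trends 12 of 25 fell with dexamethasone, and 1 of 26, ccnb1, fell with fluticasone propionate. The part of dividing cells in the fall of fabp7a was not tested.

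**Figure D5:**
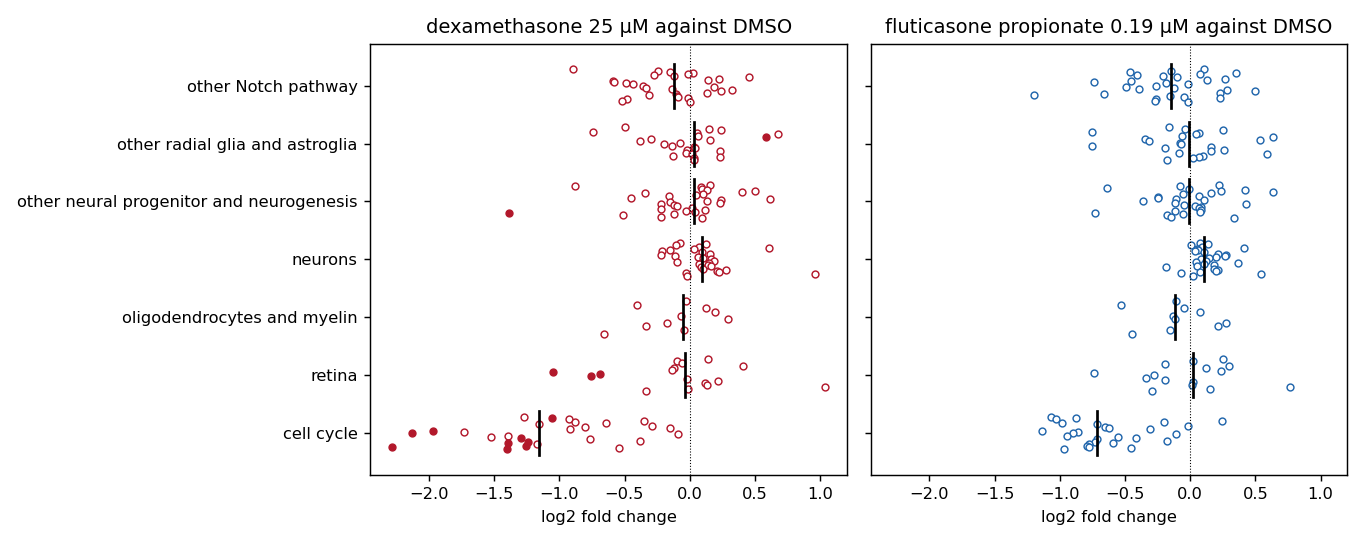
Log2 fold change (horizontal axis) of single genes in 7 lists (rows) in dexamethasone at 25 µM, left, and fluticasone propionate at 0.19 µM, right, each against DMSO. Filled points passed an adjusted p under 0.05 over all genes, open points did not, and black bars mark list medians; the cell cycle list sits lowest on both sides, at -1.15 and -0.717.

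In the lists for other tissues of the larva no gene was called at either highest concentration. None of 13 skeletal muscle, 11 liver, 8 skin and 5 blood cell genes was called at 25 µM, where 0, 2, 2 and 0 had an unadjusted p under 0.05, and their medians were 0, -0.031, 0.005 and -0.227. At 0.19 µM none of 13, 11, 9 and 5 was called, 0, 4, 1 and 1 had an unadjusted p under 0.05, with medians of 0.016, -0.158, 0.021 and -0.287. The smallest p at 25 µM were those of acta1b (-0.25 ± 0.13) and casq1a in muscle, the fibrinogen genes fgg (0.42 ± 0.12) and fga (0.37 ± 0.12) in liver, krt8 (0.26 ± 0.11) and krt4 (-0.33 ± 0.15) in skin, and coro1a (-0.48 ± 0.27) and marco in blood cells. In the trends fga rose with dexamethasone by 0.103 ± 0.028 and ambp fell with fluticasone propionate by 0.23 ± 0.058. The summed level of the muscle list was 41600 to 49100 CPM at 0.8 µM dexamethasone and 46600 to 49800 CPM at 2.5 µM. In DMSO it was 51100 to 53500 CPM. The liver sum was 6040 to 6480 CPM in DMSO. At 8, 2.5 and 0.25 µM dexamethasone it was 5300 to 5770, 4890 to 5310 and 4880 to 5810 CPM, all below DMSO. At 25 and 0.8 µM it overlapped DMSO. The liver sum was also below DMSO in 2 groups where fabp7a overlapped DMSO. These were dexamethasone at 0.008 µM, with 5440 to 5750 CPM, and fluticasone propionate at 0.019 µM, with 5300 to 5870 CPM. The skin sum was 2910 to 3280 CPM in DMSO. At 2.5, 0.8 and 0.25 µM dexamethasone it was 2340 to 2620, 2240 to 2720 and 2500 to 2670 CPM, all below DMSO. At 25 and 8 µM it overlapped DMSO. In fluticasone propionate at 0.019 µM, where fabp7a overlapped DMSO, the skin sum was 2590 to 2790 CPM, also below DMSO. The blood cell sum was 79.3 to 93 CPM in DMSO. At 25 and 8 µM dexamethasone it was 68.8 to 74.6 and 58.1 to 70.3 CPM, below DMSO. It was also below DMSO at 0.1 µM fluticasone propionate, with 60.6 to 68.7 CPM. At 0.25 µM dexamethasone it was above DMSO, with 99 to 106 CPM. Mean reads outside genes were 30.4% at 0.8 µM, 27.8% at 2.5 µM and 25% in DMSO, and their part in these sums was not tested.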

How the data were processed

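Pooled whole-larva homogenates gave QuantSeq 3′ libraries, per the labels' protocols. The authors deposited counts per gene in 1 table for each compound, with identical DMSO columns. Tools named in the submitters' processing notes are STAR 2.7.10a, HTSeq 2.0.1, bcl2fastq 2.20.0, MultiQC 1.12, FastQC and edgeR. The genome build is not given in the sources used here, nor is any removal of duplicates by molecular identifier. Rows of unassigned reads did not enter library sizes.

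Genes were kept by filterByExpr (minimum count 10, minimum total 15). After TMM scaling, edgeR 4.0.16 in R 4.3.3 gave robust quasi-likelihood F-tests, whose p-values were adjusted over all genes by Benjamini-Hochberg and called under 0.05. The 9 groups of a compound, DMSO included, shared a fit. Slopes were fitted on log10 of the nominal concentration, without DMSO. Matched pairs came from a fit of all 51 libraries. DESeq2 1.42.0 and other settings were alternatives. The steps were tested on simulated data. Replicates differed by more than sampling noise.

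The members and lists were chosen with earlier results of these data known. Genes were named by rule: the members; for each, the 5 genes of at least 5 CPM most like it over the 17 group means; and per list up to 4 called genes, or the 2 of smallest p. Of the called genes the text gives examples. Another member of the set (10 names in all) and a neuron marker are not reported here, and counts of members leave that member out.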

Additional observations from a re-analysis of the deposited data

How the results depend on the processing

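Log2 values and the number of members called were recomputed under each alternative, and calls other than those given here stayed within 1.5 times their count. The 7 lower concentrations of dexamethasone gave 3 calls with no filter on low counts, all of fabp7a, 2 without the libraries above 30% of reads outside genes, 0 with that share as a covariate, and 0 to 1 without a replicate. Dexamethasone at 25 µM gave 0 to 1 calls without a replicate. The dexamethasone trend gave 0 with measured concentration (fabp7a adjusted p = 0.0518 with edgeR), with no filter (0.0596), without the highest concentration and without any replicate letter. The fluticasone propionate trend gave 1 call, her9, with the covariate, and 1 with a replicate block (adjusted p = 0.0395 with edgeR). Over all genes kept, same-lettered libraries deviated together with correlations of -0.138 to 0.09 in 5 comparisons, so the letters were not taken as pairs. None of these set a group against another of the same compound, so a letter effect shared within a compound could not be seen. Replicate A of dexamethasone was above 30% of reads outside genes at 8, 0.8, 0.25, 0.08 and 0.025 µM. At 0.25 µM replicate B was too. The block changed no other call of a member. The correlations over all genes do not speak for a single gene. For fabp7a replicate B was the highest library in DMSO and in dexamethasone at 25 and 0.8 µM, but not at 8 or 2.5 µM. With the block fabp7a was -0.63 at 25 µM (edgeR adjusted p = 0.00841) and -0.86 at 0.8 µM (edgeR adjusted p = 0.000358). Cell cycle genes called lower at 0.19 µM fluticasone propionate went from 0 to 5 with no filter and 4 with only the 6 compared libraries. They went to 1 with the block and to 1 without replicate A of that group.

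Some uncalled values near 0 changed sign. With the covariate, fabp7a was -0.141 between 0.008 and 0.019 µM and 0.022 between 0.025 and 0.06 µM, and at 0.19 µM her9 was -0.065 and notch1a -0.046. Without the libraries above 30%, fabp7a was 0.101 between 0.025 and 0.06 µM, her6 at 25 µM was -0.006 and the nes slope with dexamethasone was -0.02. Without the highest concentration the dexamethasone slope was -0.004 for notch1a. Leaving out a replicate gave these ranges for fabp7a: -0.027 to 0.051, -0.201 to 0.047 and -0.212 to 0.198 in the 3 pairs, from lowest to highest concentration. At 25 µM they were -0.031 to 0.065 for her6, -0.417 to 0.072 for her9, -0.701 to 0.013 for nes and -0.038 to 0.251 for notch1a. At 0.19 µM they were -0.17 to 0.18 for her9, -0.26 to 0.236 for notch1a and -0.098 to 0.029 for notch3. For dexamethasone slopes they were -0.066 to 0.097 for nes and -0.063 to 0.058 for notch1a. The cause of these changes was not tested. DESeq2 gave an adjusted p for 4 of the 6 members at each highest concentration. At medians of 19 and 15 reads, notch1a and nes could show only large changes.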
